A study of Mus musculus with 29 samples.

Results

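TRBJ2 is the second cluster of joining (J) segments of the mouse T cell receptor beta chain. It was followed through 29 T cell receptor libraries made from metastases in the brain and the ovary of mice, in a model of Braf-mutated melanoma. Its members were taken as every J segment of the deposited repertoire table whose name starts with TRBJ2. That gave 6 segments, TRBJ2-1, TRBJ2-2, TRBJ2-3, TRBJ2-4, TRBJ2-5 and TRBJ2-7, of 53 J segment names in all (12 beta and 41 alpha). The other beta segments were the 6 of the first cluster, TRBJ1-1 to TRBJ1-6. A clonotype is a combination of a V segment, a J segment and the amino acid sequence of the CDR3, the loop between them. Clonotypes whose CDR3 held only the 20 standard residues were taken as productive, which kept 27384 of 27517 beta combinations. Of these, 18389 carried a TRBJ2 segment and 8995 a TRBJ1 segment.

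The series title asks whether an antibody against PD-L1 given ahead of MAPK inhibitor combination therapy improves the response. PD-L1 restrains T cells through the receptor PD-1. Trametinib is an inhibitor of MEK, a kinase of the MAPK pathway. The untreated group (treatment label No, Vehicle in the titles) and the anti-PD-L1 lead-in group carry D0 in their titles, read here as day 0. The trametinib group, the trametinib and anti-PD-L1 group (the concurrent combination) and the group given the lead-in and then both agents (the lead-in combination) carry D3, read as day 3. All groups share the same experimental metastasis model. The sources used here do not give the strain, sex or age of the mice, the melanoma line or the doses, and the table holds no other genes with which to check the labelled organs. There were 3 untreated brain libraries, 4 brain libraries for every other treatment and 2 ovary libraries per treatment. Each title also carries a number, and all but 1 carry part 1 or part 2 of it. The 10 numbers in the brain were 2 per treatment, and 5 of them, 1 per treatment, were sampled in the ovary too. What a number stands for, such as an animal, is not stated in the labels. Parts were averaged or pooled, and each p-value measures the spread between numbers, which may be technical. Untreated and lead-in samples were taken on another day than the rest, so day and trametinib cannot be told apart.

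A beta chain gene is assembled in the thymus from 1 V, 1 D and 1 J segment. The mouse locus carries a first D segment followed by the TRBJ1 cluster and the first constant region, and then a second D segment followed by the TRBJ2 cluster and the second constant region. TRBD2 lies behind TRBJ1 and is therefore expected to join TRBJ2 segments, whereas TRBD1 can join either cluster. The J segment supplies the end of the CDR3 loop that contacts the peptide and the MHC molecule. RefSeq's table of GRCm38.p6 lists all 12 beta segments found here. It also lists Trbj1-7 and, as a pseudogene, Trbj2-6, and neither name occurs in the repertoire table.

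The 6 TRBJ2 segments can be told apart by the residues they leave at the end of the CDR3. The most frequent last 6 residues of the distinct clonotypes of each segment, in single-letter code, are shown because all later results rest on this assignment.
TRBJ2-1: YAEQFF
TRBJ2-2: TGQLYF
TRBJ2-3: AETLYF
TRBJ2-4: QNTLYF
TRBJ2-5: QDTQYF
TRBJ2-7: SYEQYF
This 6-residue end was kept most often by TRBJ2-2, in 87.9% of its 1524 clonotypes, and by TRBJ2-3, in 81.7% of 2373. It was kept in 67.5% of 2610 TRBJ2-4, 66.8% of 3504 TRBJ2-1 and 56.8% of 2799 TRBJ2-5 clonotypes. TRBJ2-7 stood last with 23.7% of 5579 clonotypes, and its next most frequent end, GYEQYF, made up 12.6%. In the brain the share for TRBJ2-7 was 23.8% ± 4.01 (SD, n = 10 numbers) and in the ovary 23.8% ± 1.46 (SD, n = 5). TRBJ2-2 kept its end in 90.4% ± 3.97 in the brain and 87.7% ± 1.84 in the ovary. No overlap between these segments was seen in either organ: TRBJ2-7 reached at most 29.2% in a number and TRBJ2-2 was never below 83.3%. These shares depend on how many residues are compared. Over the last 5 residues TRBJ2-7 kept its most frequent end in 63.7% and TRBJ2-2 in 94.7% of clonotypes. Over the last 7 it was 9.59% and 55.9%, and 19.2% for TRBJ2-5, which is below the 23.7% of TRBJ2-7 over 6. Segment sequences were not at hand, so 6 residues may be an unequal part of each segment.

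TRBJ2 made up most of the beta repertoire. Its share of TRB counts had a median of 65.2% over the 19 brain libraries, with 60.2% as the lowest and 76.7% as the highest. Over the 10 ovary libraries the lowest, median and highest were 64.2%, 69.3% and 73.9%. By distinct clonotypes, in which a clonotype counts once whatever its abundance, the brain ran from 62.7% through a median of 67.2% to 72.5%, and the ovary from 65.7% through 67.7% to 69.3%. Within every library, then, TRBJ2 clonotypes outnumbered TRBJ1 clonotypes. Brain libraries held 266 to 7067 TRB counts and ovary libraries 16179 to 51674, so brain shares are less precise. In the shallowest library the 95% exact (Clopper-Pearson) interval of the TRBJ2 share was 55.1% to 67.2%, and in the deepest it was 69.1% to 69.9%. These intervals cover counting error only. In these bulk samples, more T cells with a segment and more receptor RNA per cell cannot be told apart in the count shares.

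**Figure D1:**
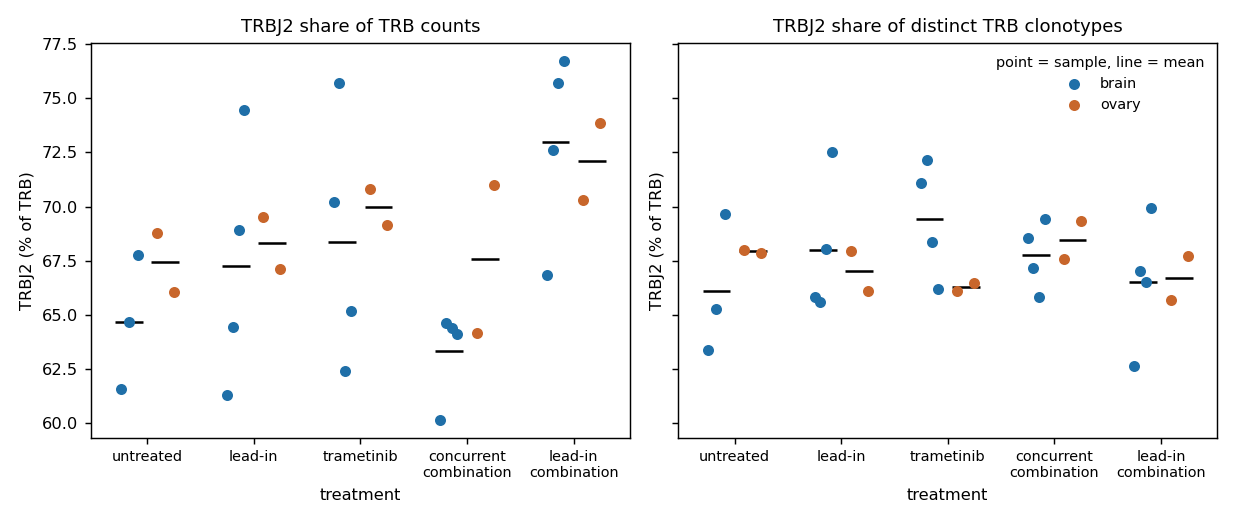
Share of TRBJ2 in each library, as a percentage of TRB counts (left) and of distinct TRB clonotypes (right), by treatment; points are libraries (brain blue, ovary orange) and black lines are means. By counts the brain libraries run from 60.2% to 76.7%, and by clonotypes from 62.7% to 72.5%.

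Within the cluster the order of the segments was much the same in all libraries at both ends. TRBJ2-7 was the most used by distinct clonotypes in 19 of 19 brain and 10 of 10 ovary libraries, and by counts in 17 of 19 and 10 of 10. TRBJ2-2 was the least used by clonotypes in 18 of 19 and 10 of 10 libraries. In the ovary TRBJ2-7 made up 20.8% ± 0.990 of TRB clonotypes (SD, n = 5 numbers) and TRBJ2-1 13.2% ± 0.529. TRBJ2-5 followed with 9.95% ± 0.891, TRBJ2-4 with 9.35% ± 0.361 and TRBJ2-3 with 8.65% ± 0.478. TRBJ2-2 closed the order with 5.37% ± 0.574. The ranges over the 5 numbers overlapped between TRBJ2-5 and TRBJ2-4 and between TRBJ2-4 and TRBJ2-3, and between no other neighbours in this order.

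In the brain of the same 5 numbers, TRBJ2-7 made up 21.6% ± 1.35 of TRB clonotypes. TRBJ2-5 with 10.2% ± 0.471, TRBJ2-1 with 9.95% ± 1.56, TRBJ2-4 with 9.69% ± 0.460 and TRBJ2-3 with 9.69% ± 0.794 lay close together, and TRBJ2-2 had 4.91% ± 1.17. TRBJ2-1, the clear second in the ovary, was therefore not separated from the middle of the order in the brain. Taken as a share of the TRBJ2 cluster alone, TRBJ2-1 held 15.05% ± 2.09 of the clonotypes in the brain and 19.6% ± 0.595 in the ovary. TRBJ2-7 held 32.7% ± 2.60 and 30.9% ± 1.68, a difference within the spread.

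TRBJ2-1 was the segment that differed between the organs. In the brain of numbers 3, 10, 13, 1 and 12 it made up 7.36%, 9.98%, 11.2%, 11.2% and 10.1% of the distinct TRB clonotypes. In the ovary of the same numbers it made up 13.05%, 12.96%, 12.97%, 14.1% and 12.8%. All 5 ovary values lay above all 5 brain values. The 5 numbers sampled in the brain alone gave 10.2%, 11.3%, 8.81%, 12.1% and 12.3%, also below each ovary value. In edgeR's quasi-likelihood test over the 53 J segments of both chains, TRBJ2-1 was higher in the ovary by a log2 difference of 0.35 ± 0.0736 (SE), with a Benjamini-Hochberg adjusted p of 0.00206. It was the only segment of the 53 that passed at 0.05, so 1 of 6 TRBJ2 segments was called against 1.89% of all segments. DESeq2 gave 0.35 with an adjusted p of 0.0202. Thinned to 622 TRB counts in each library, with both organs at one depth, the difference was 0.44 ± 0.133 with an edgeR adjusted p of 0.108, so that the call was lost.

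The other 5 segments did not pass. Their log2 differences by clonotypes (ovary minus brain, edgeR) were -0.14 for TRBJ2-3, -0.04 for TRBJ2-7, -0.03 for TRBJ2-4, -0.02 for TRBJ2-5 and -0.01 for TRBJ2-2, each with an adjusted p of at least 0.784. TRBJ2-3, the segment next to TRBJ2-1 in size of difference, had 8.92% to 10.8% in the brain and 8.11% to 9.38% in the ovary, which overlap.

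By counts, TRBJ2-1 made up 5.66%, 6.02%, 9.27%, 9.97% and 7.96% of TRB counts in the brain of numbers 3, 10, 13, 1 and 12, and 11.3%, 12.1%, 12.9%, 14.2% and 19.7% in the ovary. Again no ovary value fell within the brain range of these numbers, although brain number 14, not sampled in the ovary, had 19.6%. The log2 difference was 0.82 ± 0.231, with an edgeR adjusted p of 0.179, and 0 of 6 TRBJ2 segments were called against 0% of all 53. TRBJ2-1 was the only TRBJ2 segment with an unadjusted p under 0.05 in that fit, and DESeq2 gave it an adjusted p of 0.442. With the number as a replicate block, that is paired by number, the difference was 0.83 ± 0.176 and passed with an edgeR adjusted p of 0.0148. A large part of the highest value came from a clonotype described below, and without the largest clonotype of each library the difference was 0.55 ± 0.187 (edgeR adjusted p = 0.233).

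**Figure D2:**
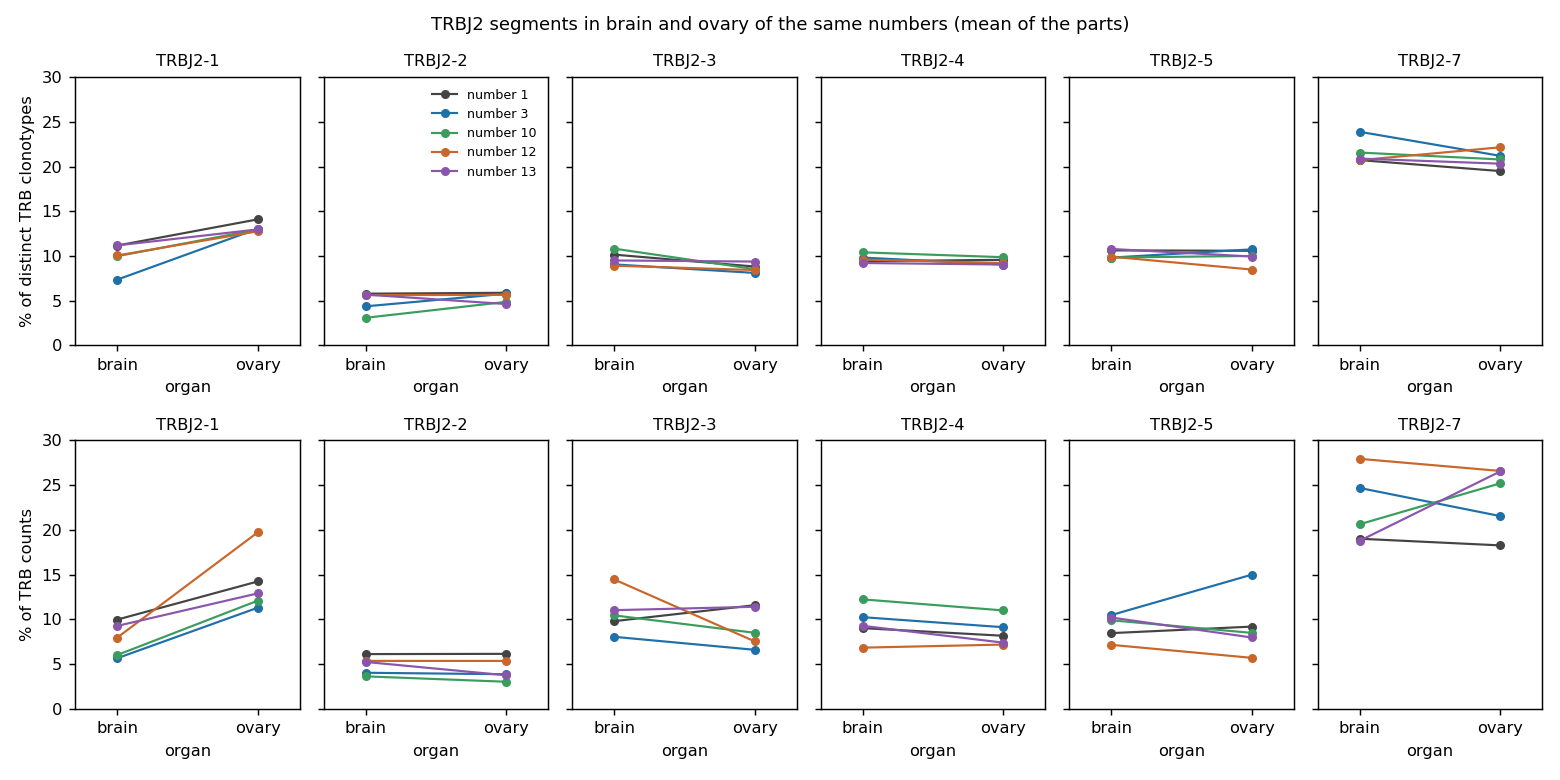
Share of each TRBJ2 segment in brain and ovary for the 5 numbers sampled in both organs, as a percentage of distinct TRB clonotypes (top) and of TRB counts (bottom); each line joins the means over the parts of a number. TRBJ2-1 rises from brain to ovary in 5 of 5 numbers in both rows, by clonotypes from 9.95% to 13.2% on average.

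The cluster as a whole differed less clearly between the organs. Its share of TRB counts was 69.1% ± 1.96 in the ovary and 64.4% ± 3.02 in the brain (SD, n = 5 numbers each), higher in the ovary in 5 of 5 numbers. The difference of 4.69 points had an exact two-sided permutation p of 0.0317 and an adjusted p of 0.0635 over the 2 measures tested. By clonotypes the shares were 67.3% ± 0.892 and 66.0% ± 1.53, higher in 4 of 5 numbers, with an exact permutation p of 0.135. Neither passed at 0.05. Without clonotypes seen as a single count both did, with differences of 5.54 and 2.68 points and adjusted exact permutation p-values of 0.0397 and 0.0317. Paired by number, the exact sign-flip p was 0.0625 for counts, the smallest that 5 numbers allow. Single-count clonotypes made up 38.6% ± 6.34 of TRB clonotypes in the brain libraries and 30.6% ± 2.38 in the ovary, and their part in the organ difference was not tested further. Clonotypes whose CDR3 did not run from C to F were also rarer in the brain (0.874% ± 0.556) than in the ovary (2.80% ± 0.530), and TRBJ2-1 kept its call without them (log2 0.33, edgeR adjusted p = 0.00349).

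Clonotypes were also sorted by whether a number showed them in both organs or in 1. TRBJ2-1 made up 13.4% ± 0.520 of the clonotypes seen in the ovary alone, 9.30% ± 3.01 of those seen in the brain alone and 11.1% ± 1.79 of those seen in both (SD, n = 5 numbers). TRBJ2-7 showed another order, with 20.5% ± 0.893, 21.0% ± 1.67 and 23.6% ± 3.05. These are descriptions without a test.

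No TRBJ2 segment passed a comparison of treatments in the brain. The cluster's share of TRB counts in numbers 3 and 7 (untreated) was 63.1% and 67.8%, and in numbers 10 and 11 (lead-in) 62.9% and 71.7%. With trametinib, numbers 8 and 13 had 73.0% and 63.8%, and with the concurrent combination numbers 1 and 6 had 62.4% and 64.2%. With the lead-in combination, numbers 12 and 14 had 69.7% and 76.2%. The lead-in combination held the highest single value, but number 12 lay below the higher numbers of the lead-in and trametinib groups. Treatment accounted for 47.8% of the sum of squares between the 10 numbers (exact permutation p = 0.422). With only 2 numbers per treatment, random groupings often reach a share this high, so it does not measure an effect of treatment. Groups with the lead-in stood 4.85 points higher within day (exact permutation p = 0.156), groups with any anti-PD-L1 0.643 points higher (exact permutation p = 0.867) and groups with trametinib 1.86 points higher (exact permutation p = 0.576). By clonotypes the same 4 tests gave 19.95% of the sum of squares and differences of -0.759, -0.888 and 0.414 points. All 8 tests had an adjusted p of 0.867.

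Per segment, edgeR called 0 of 6 TRBJ2 segments in each of the 5 brain contrasts and in the test of any treatment, by counts and by clonotypes, and DESeq2 also called 0. The share of all segments called was 1.89% for lead-in against untreated by counts and 0% in the other brain comparisons. At an unadjusted p under 0.05, edgeR listed 6 of all 53 segments by counts for the lead-in combination against the concurrent one. By clonotypes it listed 2 of 49 there. For the lead-in combination against the lead-in alone it listed 1 of 53 and 0 of 49. The other contrasts held 1 to 5 of 53 and 1 to 5 of 49, none of them TRBJ2. Among all of these were 2 TRBJ2 results by counts and 1 by clonotypes. The first was TRBJ2-7, the most used segment, for the lead-in combination set against the concurrent one. Its share of counts was 27.9% and 22.5% in numbers 12 and 14 and 19.01% and 15.1% in numbers 1 and 6. These did not overlap, with only 2 numbers on each side. In brain number 12 a single TRBJ2-7 clonotype, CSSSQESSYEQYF, held 8.83% and 7.23% of TRB counts in the parts. The log2 difference was 0.57 ± 0.239 with an edgeR adjusted p of 0.299. By clonotypes the same numbers had 20.7%, 20.9%, 20.7% and 18.5%, and the log2 difference was 0.06 (edgeR adjusted p = 0.980).

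The second was TRBJ2-1 in the lead-in combination against the lead-in alone. Its share of counts was 7.96% in number 12 and 19.6% in number 14, against 6.02% and 8.16% in numbers 10 and 11. The value of number 12 lay between the lead-in values, and number 14 alone stood far above them. The log2 difference was 0.85 ± 0.387 with an edgeR adjusted p of 0.653. It was 1.34 without number 12 (edgeR adjusted p = 0.0241), which left number 14 as the only library of its group, assumed to vary like the others, and 0.09 without number 14 (adjusted p = 0.928). Without number 12, TRBJ2-1 also passed the test of any treatment (edgeR adjusted p = 0.0267). A single clonotype made up much of number 14. It joined TRBV29 to TRBJ2-1 with a CDR3 of 16 residues and held 11.8% of TRB counts in part 1 and 14.3% in part 2. Without the largest clonotype of each library the log2 difference was 0.05 ± 0.323.

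The third was TRBJ2-3 by clonotypes, again between the lead-in and the concurrent combinations. It made up 8.92% and 7.98% in numbers 12 and 14 and 10.2% and 10.4% in numbers 1 and 6. These did not overlap, again with only 2 numbers on each side. The log2 difference was -0.25 ± 0.125 with an edgeR adjusted p of 0.870. By counts these numbers overlapped, with 14.5% and 6.55% against 9.80% and 16.2%. Parts of a number could differ widely in this segment by counts, by up to 16.3 points, with a median of 2.44 points over 9 numbers in the brain. Number 6 had the widest gap, and its part 1 held a clonotype with 10.2% of TRB counts that made up 0.0655% of part 2.

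Large clonotypes, those with 1% or more of the TRB counts of a library, were read as expanded ones. Over the brain there were 280 such occurrences, 184 of them with TRBJ2, and over the ovary 113, of which 81 carried TRBJ2. The TRBJ2 share among large clonotypes minus that among the others was -3.67 points ± 13.6 in the brain (SD, n = 10 numbers), higher among the large in 6 of 10 numbers, with an exact sign-flip p of 0.439. In the ovary it was 3.24 points ± 15.04 (n = 5), higher in 3 of 5, with an exact sign-flip p of 0.625. Neither difference exceeded the spread between numbers. In the shallowest brain library 1% is under 3 counts, and when at least 10 counts were also asked for, the brain difference was 1.45 points (exact sign-flip p = 0.811), the other sign.

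The treatments were spread widely in this measure, and with 2 numbers in a brain group and 1 in an ovary group the values are descriptions. In the concurrent combination in the brain, 13 of 30 large clonotypes carried TRBJ2, 41.5% ± 6.90 over the 4 libraries, against 68.1% of the other clonotypes. In the lead-in combination 30 of 40 did, 75.8% ± 8.16 against 66.4%. The untreated, lead-in and trametinib groups lay between, with 37 of 56, 49 of 75 and 55 of 79. Of the 75, 43 came from part 1 of lead-in number 10, where the smallest large clonotype had 3 counts. Part 2 of trametinib number 8 gave 35 of the 79. The parts of untreated number 3 gave 21 and 25 of the 56. In these 3 libraries the smallest had 4 counts. It had 13 to 32 in the concurrent and 60 to 92 in the lead-in combination libraries, so the groups do not compare like clonotypes. In the ovary the extremes were other groups: 8 of 16 with no treatment and 17 of 19 with trametinib, each from a single number. For the concurrent combination in the ovary it was 15 of 23, and for the lead-in combination 23 of 30.

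Among the segments, TRBJ2-7 supplied more of the large TRBJ2 clonotypes than any other, 60 of 184 in the brain and 37 of 81 in the ovary. Its share of the large clonotypes was 21.5% ± 14.99 per brain library against 22.3% of the others, and 31.5% ± 14.9 per ovary library against 20.7%. TRBJ2-1 supplied 17 in the brain and 15 in the ovary. It made up 6.89% ± 6.80 of large brain clonotypes against 10.96% of the others, and 12.6% ± 8.90 of large ovary clonotypes against 13.2%. TRBJ2-2 supplied 16 in the brain and 2 in the ovary, where it made up 1.42% ± 3.05 of the large clonotypes and 5.38% of the others. TRBJ2-3 supplied 34 and 12, TRBJ2-4 29 and 7, and TRBJ2-5 28 and 8. These values were not tested. The difference between large and other clonotypes was larger than the SD over libraries only for TRBJ2-2 in the ovary, among these 6 segments in both organs. There, 8 of 10 libraries held no large TRBJ2-2 clonotype, so the value lies near the floor and the SD is small. These 10 libraries are also parts of only 5 numbers.

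The clonotypes that led each segment show how much a single clonotype can move a share by counts. Whether a clonotype stands for a single T cell clone cannot be read from these data. The 11 of them with at most 14 residues, as the deposited table gives them, are shown because each had the highest mean share of its segment in an organ or was the largest TRBJ2 clonotype of a treatment in an organ.
TRBV1 with TRBJ2-1: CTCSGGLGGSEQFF
TRBV4 with TRBJ2-3: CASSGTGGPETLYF
TRBV20 with TRBJ2-4: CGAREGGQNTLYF
TRBV16 with TRBJ2-5: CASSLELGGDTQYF
TRBV23 with TRBJ2-7: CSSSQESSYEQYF
TRBV16 with TRBJ2-7: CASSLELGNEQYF
TRBV12-1 with TRBJ2-7: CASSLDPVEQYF
TRBV16 with TRBJ2-7, in untreated and lead-in samples: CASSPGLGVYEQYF
TRBV5 with TRBJ2-3: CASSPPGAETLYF
TRBV5 with TRBJ2-5: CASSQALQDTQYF
TRBV20 with TRBJ2-7: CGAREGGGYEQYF
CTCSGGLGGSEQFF was seen in number 12 (lead-in combination) alone. It held 8.93% and 10.9% of TRB counts in the parts of the ovary sample and 0.132% and 0.385% in those of the brain. It was the largest TRBJ2-1 clonotype of the ovary. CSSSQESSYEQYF, of the same number, was large in both organs, with 8.83% and 7.23% in the brain and 4.45% and 6.42% in the ovary. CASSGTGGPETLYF was the TRBJ2-3 clonotype of brain number 6 named above, with 132 counts in part 1 and 1 count in part 2. The 2 parts of a number can thus hold a clonotype at very different shares.

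In the ovary of number 3 (untreated), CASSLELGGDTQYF held 5.36% and 3.67% of TRB counts, and TRBJ2-5 as a whole 14.996%, its highest value in any number. In the ovary of number 10 (lead-in), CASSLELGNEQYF held 5.84% and 5.49%, against 0.595% in 1 brain part and no count in the other. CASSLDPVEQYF held 6.45% and 0.848% in the parts of ovary number 13 (trametinib). The clonotype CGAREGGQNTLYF was the only one of the 11 found in more than 2 numbers. It was seen in 11 libraries of 5 numbers, at 0.124% to 2.47%, and in lead-in, trametinib and lead-in combination samples. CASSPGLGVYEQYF was found in numbers 3 and 11, with 3.44% as its highest share, from 11 counts. The last 3 sequences each belonged to a single number. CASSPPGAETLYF reached 2.81% in the ovary of number 1, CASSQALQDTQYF 2.69% in the brain of number 14 and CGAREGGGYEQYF 4.08% in the brain of number 11. Sharing between numbers was rare in the whole cluster: 550 of 18389, or 2.99%, occurred in 2 or more numbers, against 2.81% of TRBJ1 clonotypes. By segment this share ran from 2.17% for TRBJ2-2 to 3.62% for TRBJ2-7.

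The CDR3 residues left by the D segments differed sharply between the clusters. Residues DWG or GLG, which TRBD2 encodes in its reading frames, were found in 13.5% ± 2.33 of the distinct TRBJ2 clonotypes and in 0.454% ± 0.319 of the TRBJ1 clonotypes (SD, n = 10 numbers). The share was higher for TRBJ2 in 10 of 10 numbers, and the exact sign-flip p of 0.00195 (adjusted p = 0.00195 over 2 tests) is the smallest that 10 numbers can give. The locus order described above set this direction in advance. The p-value is therefore a check on the J assignment and not a finding about these samples. Residues DRG or GQG, read from TRBD1, were found in 4.82% ± 0.758 of TRBJ2 and 9.54% ± 1.28 of TRBJ1 clonotypes, and were rarer for TRBJ2 in all 10 numbers (exact sign-flip p = 0.00195). The locus order set this direction too, since TRBJ2 can draw on both D segments and TRBJ1 is left with TRBD1. This p-value is likewise a check on the J assignment and not a finding about these samples. Over all samples, 2534 TRBJ2 and 50 TRBJ1 clonotypes held the TRBD2 residues, so 98.1% of them carried TRBJ2. The TRBD1 residues were shared almost evenly, by 907 TRBJ2 and 876 TRBJ1 clonotypes. Short motifs can also arise from V segments or from added nucleotides, and a match is not an assignment of the D segment.

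All 6 TRBJ2 segments carried the TRBD2 residues more often than any TRBJ1 segment on average. TRBJ2-7 had 16.5% ± 2.67, with 12.9% as its lowest number. TRBJ2-1 had 13.5% ± 3.87, TRBJ2-4 12.4% ± 2.76 and TRBJ2-3 12.1% ± 4.28. TRBJ2-5 with 10.8% ± 5.09 and TRBJ2-2 with 10.5% ± 5.68 were lowest, and all of these ranges overlapped. Among the TRBJ1 segments the highest mean was 1.04% ± 0.827, for TRBJ1-3. The organs gave like values for TRBJ2, 13.7% ± 2.73 in the brain (n = 10) and 14.4% ± 1.24 in the ovary (n = 5). TRBJ2 clonotypes with the TRBD2 residues had a mean CDR3 of 14.9 residues, against 13.99 for those without. The few TRBJ1 clonotypes with them had 14.3 against 13.95. Clonotypes with the TRBD1 residues were longer too, with 14.4 against 14.1 for TRBJ2 and 14.8 against 13.9 for TRBJ1. A longer CDR3 has more room for any short motif, so these differences are not read as a trait of TRBD2 or TRBJ2. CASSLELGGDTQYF does not hold either TRBD2 motif, whereas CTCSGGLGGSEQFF and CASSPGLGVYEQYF, both printed above, hold GLG.

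**Figure D3:**
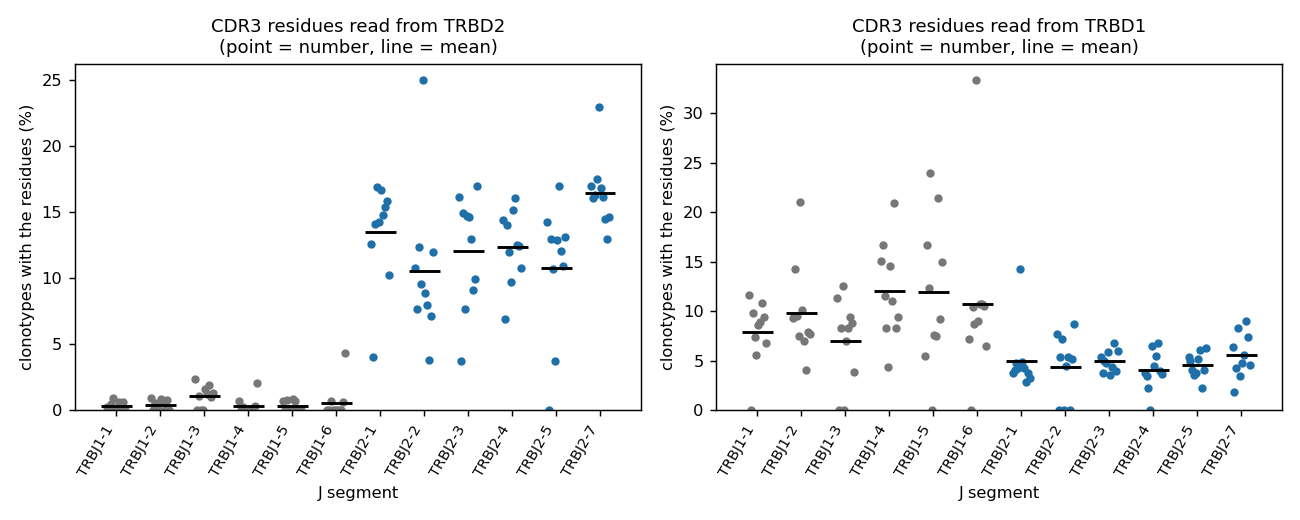
Percentage of the distinct clonotypes of each beta J segment whose CDR3 holds residues read from TRBD2 (left) or from TRBD1 (right); each point is 1 of the 10 numbers with all its samples pooled, TRBJ1 in grey and TRBJ2 in blue, and lines are means. The TRBD2 residues average 10.5% to 16.5% in the TRBJ2 segments and at most 1.04% in the TRBJ1 segments.

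CDR3 length differed among the TRBJ2 segments more than between the clusters. Distinct TRBJ2 clonotypes averaged 13.9 residues in the brain and 14.1 in the ovary. The difference from TRBJ1 was 0.0403 residues ± 0.174 in the brain (SD, n = 10 numbers), longer in 6 of 10 numbers, with an exact sign-flip p of 0.502. In the ovary it was 0.167 residues ± 0.102 (n = 5), longer in 5 of 5, with an exact sign-flip p of 0.0625, the smallest that 5 numbers allow. Within the cluster, TRBJ2-2 was longest in the ovary with 14.8 residues ± 0.0865, followed by TRBJ2-3 with 14.6 ± 0.0530, TRBJ2-1 with 14.4 ± 0.0859 and TRBJ2-4 with 14.4 ± 0.0422. TRBJ2-5 had 14.03 ± 0.0338 and TRBJ2-7 was shortest with 13.4 ± 0.0528. The ranges over the 5 numbers overlapped between TRBJ2-2 and TRBJ2-3 and between TRBJ2-1 and TRBJ2-4, and between no other neighbours.

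In the brain the order was the same at both ends, with 14.5 ± 0.448 residues for TRBJ2-2 and 13.3 ± 0.106 for TRBJ2-7 (SD, n = 10 numbers). TRBJ2-7 never exceeded 13.4 residues in a brain number, and the lowest TRBJ2-2 number, at 13.3, overlapped with it. The most frequent length was 14 residues for TRBJ2-7, in 30.7% of its clonotypes, and 15 for TRBJ2-2, in 33.1%. Lengths of 12 made up 16.5% of TRBJ2-7 and 3.94% of TRBJ2-2 clonotypes. By treatment, the mean TRBJ2 length in brain libraries ran from 13.8 ± 0.152 with trametinib to 14.01 ± 0.0770 with the lead-in combination, a range of the size of the spread between libraries, and was not tested.

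**Figure D4:**
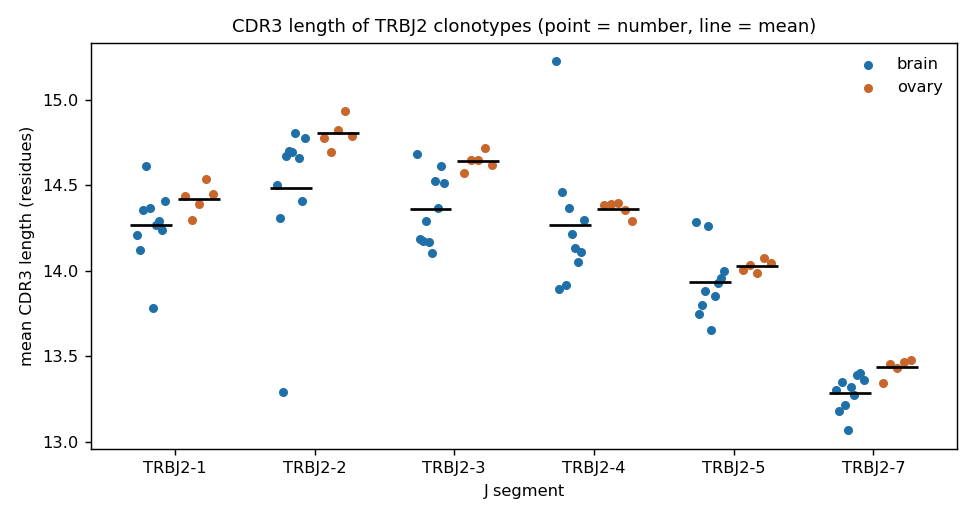
Mean CDR3 length, in amino acid residues, of the distinct clonotypes of each TRBJ2 segment; points are numbers (10 in the brain, blue, and 5 in the ovary, orange) and lines are means. TRBJ2-7 is shortest in both organs, with 13.3 and 13.4 residues, and TRBJ2-2 is longest, with 14.5 and 14.8.

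TRBJ2 clonotypes drew on a few V segments more than others. In the brain the most frequent partners were TRBV16 with 10.9% ± 1.83 of TRBJ2 clonotypes, TRBV19 with 10.7% ± 2.36 and TRBV13-2 with 9.39% ± 1.49 (SD, n = 10 numbers). In the ovary TRBV13-2 led with 12.4% ± 2.10, before TRBV16 with 9.62% ± 1.22 and TRBV3 with 8.84% ± 1.16 (n = 5). Most of these V segments were also frequent among TRBJ1 clonotypes. In the brain TRBJ1 had TRBV19 at 11.5% and TRBV13-2 at 10.3%, and in the ovary TRBV13-2 at 13.7% and TRBV3 at 8.66%. TRBV16 alone was not among the 5 most frequent V segments of TRBJ1 in either organ. Apart from TRBV16, these leading partners therefore do not set TRBJ2 apart from TRBJ1. The leading partner varied by segment in the brain: TRBV3 for TRBJ2-1, TRBV29 for TRBJ2-2, TRBV19 for TRBJ2-3, TRBV13-2 for TRBJ2-4 and TRBV16 for TRBJ2-5 and TRBJ2-7. Each lead over the next V segment was smaller than the SD of the leader over numbers, so these leaders were not separated. For TRBJ2-2, TRBV29 had 10.2% ± 5.31 and TRBV1 9.97% ± 4.57. For TRBJ2-4, TRBV13-2 had 10.5% ± 4.53 and TRBV16 9.91% ± 2.34. In the ovary TRBV13-2 led for each of the 6 segments.

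For 19 V segments with enough clonotypes, the TRBJ2 share among the clonotypes of that V was set against the share among all others in the same number. TRBV16 had a TRBJ2 share of 76.5% ± 4.89 (SD, n = 10 numbers), 9.45 points above the other V segments and higher in 10 of 10 numbers. TRBV17 stood 10.5 points above in the mean and was higher in 8 of 9 numbers, and TRBV12-1 stood 6.54 points above and was higher in 9 of 10. TRBV1 lay 5.44 points below, higher in 2 of 10, and TRBV29 lay 5.35 points below, higher in 1 of 10. These 5 of 19 V segments (26.3%, with 15.8% higher and 10.5% lower) passed the exact sign-flip test, with adjusted p-values of 0.0445 for TRBV29 and 0.0371 for the others. TRBV26, lowest of all at -11.1 points, TRBV31 at -6.43, TRBV2 at -5.71 and TRBV4 at 7.26 did not pass (adjusted exact sign-flip p of 0.0848, 0.0742, 0.517 and 0.132).

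The calls did not outlast several other settings. No V segment passed with clonotypes weighted by counts, in the brain alone, without single-count clonotypes, or without number 10, 11, 12 or 13. Without number 3, TRBV16 and TRBV12-1 alone were called. Without number 7, TRBV17 was called beside them and neither V segment below. Without number 6, TRBV17 and TRBV1 were lost, and without number 8, TRBV17 and TRBV29. Without number 1, TRBV29 was lost and TRBV31 and TRBV5 were called as lower, and without number 14 all 5 were called, with TRBV26 as a further lower one. With at least 20 clonotypes per V segment and number, TRBV16 alone passed. The directions of the 5 called V segments held in all 15 alternatives, with 8.01 to 10.2 points for TRBV16 and -7.16 to -3.99 points for TRBV1. With 1 number fewer the smallest p that the test can give rises from 0.00195 to 0.00391.

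**Figure D5:**
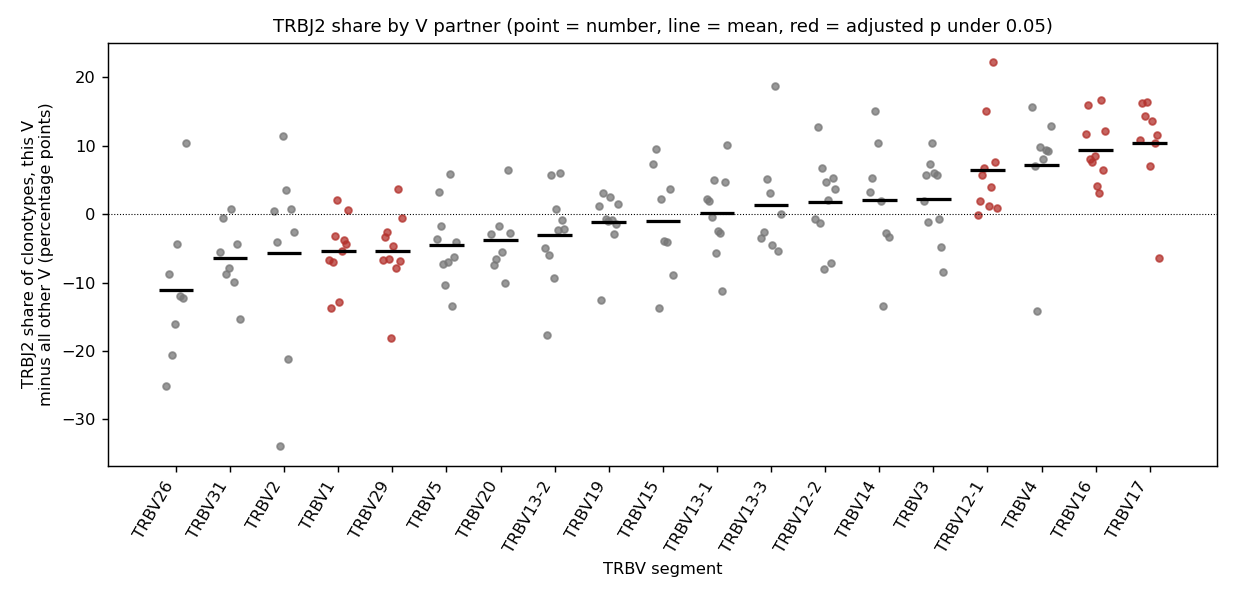
Difference in the TRBJ2 share of distinct clonotypes between each of 19 V segments and all other V segments, in percentage points; points are numbers, lines are means, and V segments with an adjusted p under 0.05 are red. TRBV16 lies above 0 in 10 of 10 numbers, with a mean of 9.45 points.

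Each called V segment is described by the TRBJ2 segments it was joined to, and differences between V segments were not tested. Among TRBV16 clonotypes, TRBJ2-7 made up 26.2% ± 5.79 against 20.7% ± 1.99 of the other V segments, and TRBJ2-5 13.3% ± 4.64 against 9.69% ± 1.15, each higher in 8 of 10 numbers. Among TRBV12-1 clonotypes, TRBJ2-1 made up 18.7% ± 5.01 against 11.6% ± 1.65, higher in 9 of 10, while TRBJ2-5 made up 4.95% ± 3.71 against 10.2% ± 1.09, higher in 1 of 10. TRBJ2-7 made up 25.3% ± 7.02 of TRBV12-1 clonotypes against 21.1% ± 2.27, higher in 7 of 10. Among TRBV17 clonotypes the higher segments were TRBJ2-1, with 16.6% ± 4.50 against 11.96% ± 1.46, TRBJ2-2, with 10.9% ± 8.23 against 5.60% ± 0.663, and TRBJ2-5, with 13.1% ± 5.52 against 10.1% ± 1.04, each higher in 7 of 9. TRBJ2-7 made up 21.8% ± 6.09 against 21.01% ± 2.50, higher in 6 of 9. TRBJ2-4 was less used with TRBV17, 6.25% ± 3.10 against 9.69% ± 0.339, higher in 1 of 9. Among TRBV1 clonotypes TRBJ2-7 was less used, with 17.4% ± 6.75 against 21.5% ± 2.21, higher in 1 of 10 numbers. TRBJ2-7 was also less used with TRBV29, 17.9% ± 4.10 against 21.6% ± 2.14, again higher in 1 of 10. These values are descriptions without a test, since the V segments were named for their total.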

How the data were processed

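The authors deposited 1 table of counts for 29 libraries, which per the labels were prepared from RNA with a QIAseq Immune Repertoire kit. The deposited counts are whole numbers per chain, V, J and CDR3, not normalized. The sources used here do not give the aligner, the clonotype caller or whether reads or molecules were counted. The submitters' processing notes name GRCh38, a human build, so no coordinates are given. Beta clonotypes with an unresolved residue, 0.0608% of TRB counts, were left out.

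The members and lists were chosen with earlier results of these data known. Named items were the 6 TRBJ2 segments, the TRBJ1 segments, the V segments with the 3 highest and 3 lowest differences or past the threshold, and the leading clonotype of each segment, organ and treatment. Of the 6 highest and lowest, TRBV26, TRBV31, TRBV2 and TRBV4 did not pass.

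For J segments, parts of a number were summed, and a segment needed at least 10 counts in 2 libraries or more. The quasi-likelihood test of edgeR 4.0.16 was used in R 4.3.3, with the log of each chain total as offset. DESeq2 1.42.0 served as an alternative. The brain fits held 53 segments by counts and 49 by clonotypes. Other tests were two-sided exact permutation or sign-flip tests over numbers, adjusted by Benjamini-Hochberg within each family at 0.05. V segments needed at least 10 clonotypes in at least 6 numbers. They ran in scipy 1.17.1 (Python 3.11.15, pandas 2.3.3, numpy 2.4.6), and plots in matplotlib 3.10.9.

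Tested on simulated data with 3-fold to 6-fold changes, edgeR recovered 9 of 10 segments by counts between the lead-in and concurrent combinations and 10 of 10 between organs, of 53 tested. By clonotypes it recovered 4 of 6, with 1 false call, of 50 tested, and 10 of 10 of 52. The V test recovered 3 of 5 V segments shifted by 12 points. These simulated sizes were larger than any TRBJ2 segment or V difference in the main tests. Recovery of differences of the sizes seen was not tested. Numbers were checked for pairing over 53 J segments: deviations from the organ means of same-numbered brain and ovary samples correlated at 0.724, 0.491, 0.326, 0.768 and 0.839 for numbers 3, 10, 13, 1 and 12, and at up to 0.534 for unmatched numbers (brain 13 with ovary 1). All 5 were over 0.1, so the fits paired by number are given beside the main organ tests, which were unpaired. Unmatched numbers could pass this cut too, such as brain 10 with ovary 13 at 0.334, so it does not show that same-numbered samples are pairs. Alternatives covered parts, denominators, low counts, depth, tool and each number left out.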

Additional observations from a re-analysis of the deposited data

Results flagged for a closer look

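Of 56 sets examined, each of the 4 libraries of a treated brain group, 2 held a library apart from the rest. Untreated brain and ovary groups, with fewer libraries, were not examined. Chance flags about 1 in 20 such sets if libraries are independent, but each set held 2 parts of each of 2 numbers. In brain trametinib, part 1 of number 8 had a TRBJ2-5 share of clonotypes of 5.88%, below the next lowest library at 10.5%. In the brain concurrent combination, part 1 of number 1 had a TRBJ2 share of TRB counts of 60.2%, below the next lowest at 64.1%. Its own part 2 had 64.6%. By clonotypes the same library had 68.6%, within the range of its group.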

How the results depend on the processing

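Brain libraries of 266 to 7067 TRB counts limit every brain value, and shares of single segments there rest on few clonotypes. The brain TRBJ2 shares passed no test under any alternative. With single-count clonotypes left out, the lead-in difference by clonotypes was 0.663 points in place of -0.759, and with the largest clonotype left out the anti-PD-L1 difference by counts was -0.0260 points in place of 0.643. Leaving out each number in turn, the sum of squares ran from 30.5% to 64.4% by counts and 8.27% to 44.0% by clonotypes, the lead-in difference from 2.73 to 6.82 and from -1.94 to 0.379 points, anti-PD-L1 from -1.13 to 2.94 and from -2.09 to 0.495, and trametinib from 0.255 to 3.63 and from -0.644 to 1.34.

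Between organs, both TRBJ2 shares passed without single-count clonotypes (5.54 and 2.68 points), and the range without each number was 4.33 to 5.27 points by counts and 0.700 to 1.85 by clonotypes. With the replicate block (paired by number) these differences stayed at 4.69 and 1.28 points (exact sign-flip adjusted p = 0.125 and 0.188). By counts, 1 TRBJ2 segment, TRBJ2-1, was called with the replicate block (log2 0.83) and relative to the TRBJ2 total (log2 0.71), and the block changed no other call. By clonotypes TRBJ2-1 was called in 11 of 12 alternatives, with 0 called when thinned to equal depth. Without each number, its log2 difference was 0.32 to 0.39 by clonotypes and 0.67 to 0.92 by counts, with 1 called throughout by clonotypes and 0 by counts. In the brain, 0 to 1 TRBJ2 segments were called without each number for the lead-in combination against the lead-in and for any treatment, and 0 in the other comparisons.

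For V partners, 0 V segments were higher and 0 lower when weighted by counts, in the brain alone or without single counts, 1 and 0 with at least 20 clonotypes, and 0 to 3 of each without each number. The large clonotype difference was 1.45 points with at least 10 counts, and -5.54 to -0.579 without each number. The D residue and CDR3 length results kept their direction and side in the alternatives run, the latter from 0.000514 to 0.0708 residues. The causes were not tested. Alternatives on depth, clonotype quality, denominators and the 10-count minimum, and single counts for V partners and D residues, were chosen after seeing the data.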
